A study of Mus musculus with 24 samples.

Results

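The collagen chain genes are the genes that encode the alpha chains of the collagens, and they were taken here as every row of the count table whose symbol reads Col, a number, a and a number. The rule found 44 genes among the 55401 in the table, and all 44 passed the filter on low counts in every comparison. The series is bulk RNA sequencing of total RNA after ribosomal RNA depletion, from the kidney, left ventricle and skeletal muscle of C57BL6/J mice. Mice were 86 weeks or 16.5 weeks old, with 4 mice at each age, 2 of each sex, and the same 8 mice gave all 3 tissues, so that the 24 libraries are 6 groups of 4. No mutation or treatment is given for any group, and neither the muscle sampled nor the region of the kidney is named.

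Collagen chains assemble in 3s into a triple helix inside the endoplasmic reticulum, after prolyl and lysyl hydroxylation, and are then secreted into the extracellular matrix. Fibril-forming chains such as those of types I and III give tissues their tensile strength, and fibril-associated chains sit on the surface of those fibrils. Type IV chains form the sheet of the basement membrane, type VI chains form beaded filaments around cells, and types XV and XVIII sit where basement membrane meets stroma. In kidney the type IV chains encoded by Col4a3, Col4a4 and Col4a5 make up the mature glomerular basement membrane, and loss of any of them causes Alport syndrome.

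Type IV chain genes lie in head-to-head pairs that share a promoter region, and windows are shown here for the pairs Col4a3 with Col4a4 and Col4a1 with Col4a2, whose members differed between tissues in the same direction wherever both passed the test, as given below. The windows are from RefSeq on GRCm38.p6 and run from 250 bases before the annotated start to 50 bases after it, read 5′ to 3′ on the strand of the named gene. In the first window, chr1:82586800-82587099 on the minus strand, capitals mark the 73 bases from the start of Col4a3, which is read the other way, to the start of Col4a4. In the second, chr8:11312777-11313076 on the minus strand, capitals mark the 22 bases that the annotated first exons of Col4a1 and Col4a2 share.
Col4a4: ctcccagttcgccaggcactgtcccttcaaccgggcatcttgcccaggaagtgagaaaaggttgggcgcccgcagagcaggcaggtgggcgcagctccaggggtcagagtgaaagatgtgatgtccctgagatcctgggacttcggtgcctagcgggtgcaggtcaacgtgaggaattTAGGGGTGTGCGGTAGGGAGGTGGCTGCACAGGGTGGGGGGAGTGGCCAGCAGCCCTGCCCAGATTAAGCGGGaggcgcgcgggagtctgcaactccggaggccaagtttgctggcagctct
Col4a1: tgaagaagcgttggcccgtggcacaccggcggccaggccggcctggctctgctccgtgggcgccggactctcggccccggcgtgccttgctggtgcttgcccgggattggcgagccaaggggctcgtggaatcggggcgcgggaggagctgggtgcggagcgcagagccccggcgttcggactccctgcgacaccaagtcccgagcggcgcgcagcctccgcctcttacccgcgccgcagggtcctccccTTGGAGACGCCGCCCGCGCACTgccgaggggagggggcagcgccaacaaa
The third pair, Col4a5 and Col4a6 on chromosome X, also reads outwards, with 1309 bases between the starts, and of its members Col4a5 passed the test in 2 tissue comparisons and Col4a6 in 0. Among all members 35 had a promoter window in the RefSeq table, 38 windows in all. The GC box letters GGGCGG, searched on both strands, were in 23 of these 38 windows, which is 60.5%, against 35.7% of all 32851 windows of that length. The member windows were also richer in G and C, with a median of 59.9% against 52.7% of bases in all windows, and 29 of the 38 were above the median of all. The letters TATAAA were in 13.2% of member windows and 13.6% of all windows, and CCAAT was in 34.2% and 37.4%, on either strand. Neither printed window holds TATAAA. The Col4a1 window holds GGGCGG on its reverse strand, inside the shared stretch, and CCAAT on its reverse strand upstream of it. These matches describe the letters in the windows and no binding was measured.

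The libraries held from 52602585 to 103797551 counts in total. Levels are counts scaled to a library size of 1000000 (CPM) with library sizes adjusted by the trimmed mean of M values (TMM). Levels of single genes are compared with each other only per kilobase of the longest annotated coding transcript. Sums over genes, and the shares of classes in a sum, are of CPM without a correction for length. The tissue labels matched their markers. All 6 kidney tubule markers were higher in kidney than in both other tissues, all 6 cardiomyocyte markers were higher in left ventricle than in the other 2, and all 6 skeletal myofibre markers were higher in skeletal muscle. Some libraries stood apart. In skeletal muscle, 86-week mouse 17 and 16.5-week mouse 19 had summed fibroblast markers of 428 and 330 CPM against 827 to 1067 CPM in the other 6 libraries. In left ventricle, summed valve, epicardial and atrial markers were 101 to 191 CPM in 86-week mice 11, 12 and 14 and 143 CPM in 16.5-week mouse 19, against 25.1 to 43.6 CPM in the other 4. In kidney, 16.5-week mouse 15 had 268 CPM of adipocyte markers against 26.2 to 79.0 CPM in the other 7.

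The 44 collagen genes together took 1459 to 2230 CPM in kidney libraries, 1249 to 1970 CPM in left ventricle libraries and 741 to 2101 CPM in skeletal muscle libraries. Their sum averaged 1778 ± 274 CPM in kidney, 1676 ± 206 CPM in left ventricle and 1308 ± 488 CPM in skeletal muscle (SD, n = 8 each), so the ranges of the 3 tissues overlapped. What filled that sum, which weights long transcripts more than short ones, differed. The 6 type IV chains held 57.9% of it in kidney, 41.1% in left ventricle and 16.0% in skeletal muscle. The 11 fibril-forming chains held 16.5% in kidney, 31.3% in left ventricle and 49.7% in skeletal muscle. Type VI chains held 6.53%, 15.1% and 20.3% of the sum in kidney, left ventricle and skeletal muscle, and types XV and XVIII together held 8.75%, 5.86% and 3.41%.

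**Figure D1:**
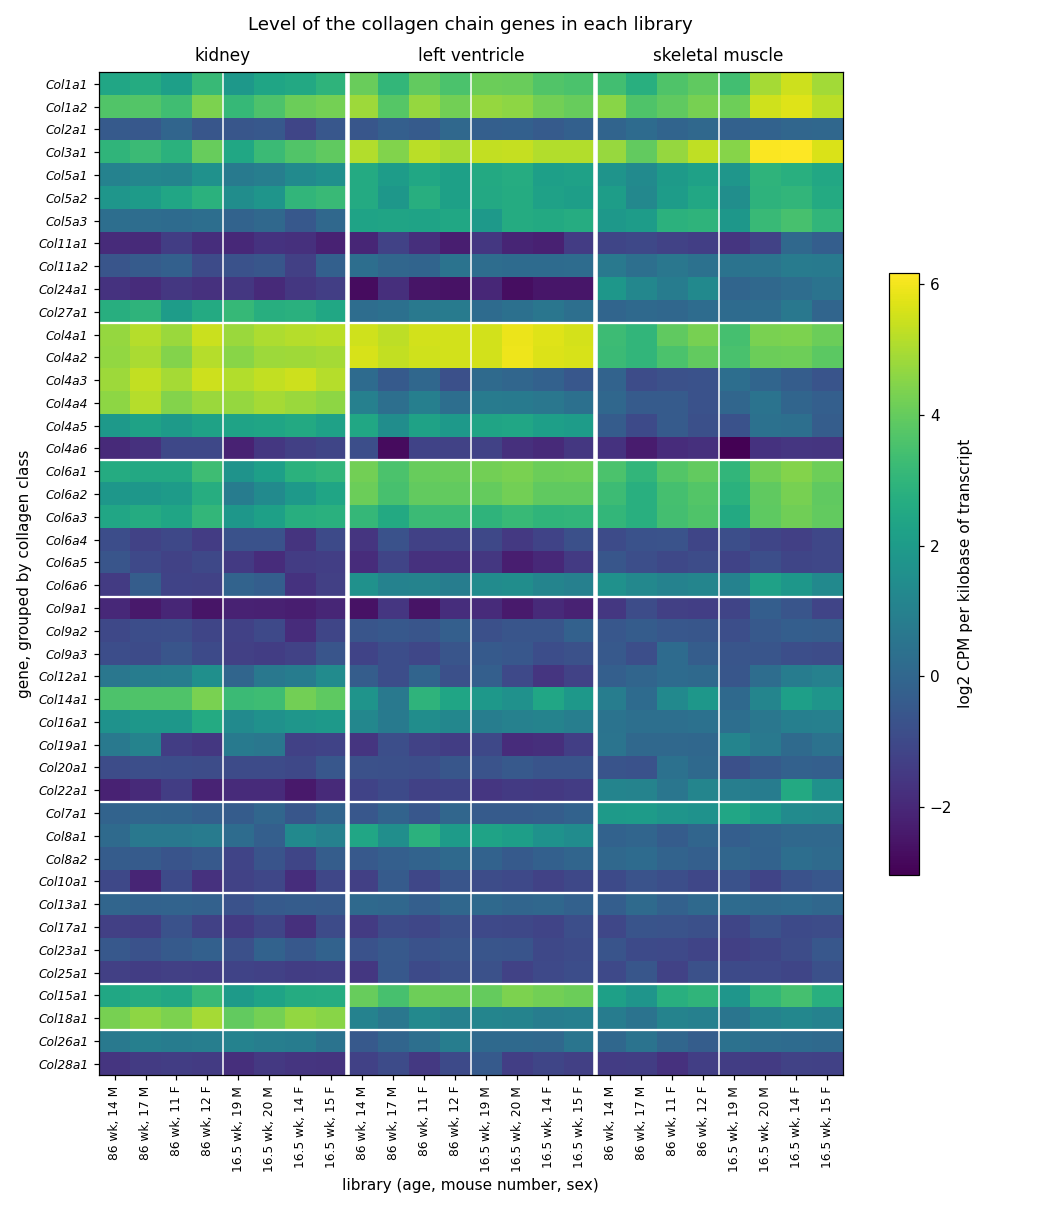
Level of each of the 44 collagen chain genes (rows, grouped by class) in each of the 24 libraries (columns, by tissue, age, mouse number and sex), as log2 CPM per kilobase. Col4a3, Col4a4 and Col18a1 are bright in the 8 kidney libraries and dark in the other 16, and Col24a1 and Col22a1 are each brighter in skeletal muscle than in kidney and left ventricle.

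To give the low end of the scale a measure, the same value was taken for 1106 olfactory receptor genes, used here only as a low reference. Their 95th percentile was 0.257 CPM per kilobase in kidney, 0.303 in left ventricle and 0.363 in skeletal muscle, and 40 members were above it in all 3 tissues. Col4a6 was above it in kidney and left ventricle, Col11a1 in kidney and skeletal muscle, Col24a1 in kidney and skeletal muscle, and Col9a1 in skeletal muscle only. Most members were low. Per kilobase, 5 members led each tissue. In kidney these were Col4a3 at 37.2 ± 6.08, Col4a1 at 33.3 ± 5.73, Col4a2 at 28.3 ± 4.37, Col4a4 at 27.3 ± 4.14 and Col18a1 at 22.3 ± 4.73 CPM per kilobase (SD, n = 8). Within libraries, Col4a3 was above Col4a1 in 7 of 8, Col4a1 above Col4a2 in 8 of 8, Col4a2 above Col4a4 in 5 of 8 and Col4a4 above Col18a1 in 7 of 8. In left ventricle Col4a2 at 48.7 ± 6.06 and Col4a1 at 48.1 ± 6.10 kept no fixed order, Col4a2 being higher in 5 of 8 libraries, and Col3a1 at 34.3 ± 6.14, Col1a2 at 21.5 ± 5.44 and Col6a1 at 17.1 ± 2.48 CPM per kilobase followed. In skeletal muscle Col3a1 led at 40.5 ± 21.7, followed by Col1a2 at 28.1 ± 15.2, Col1a1 at 20 ± 13.3, Col4a1 at 15.2 ± 4.94 and Col6a1 at 14.3 ± 4.94 CPM per kilobase. Col3a1 was above Col1a2, and Col1a2 above Col1a1, in 8 of 8 muscle libraries, while Col1a1 was above Col4a1 in 4 of 8 and Col4a1 above Col6a1 in 5 of 8. These orders hold for the length used. Col1a2 has 5.35 kilobases in its longest coding transcript but 12.4 over all annotated exons, against 5.93 and 6.56 for Col1a1. The place of Col1a2 among the leading members therefore depends on that choice.

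The remaining members fell into a middle and a low range. Per kilobase, Col14a1 averaged 13.8 CPM in kidney, 4.18 in left ventricle and 2.54 in skeletal muscle, and Col27a1, a fibril-forming chain, averaged 6.59, 1.38 and 1.13 in the same order. Col15a1 averaged 5.96 CPM per kilobase in kidney, 16.8 in left ventricle and 6.56 in skeletal muscle. Several members known best from cartilage were low in all 3 tissues. Col2a1, the main cartilage fibril chain, averaged 0.706 CPM per kilobase in kidney, 0.833 in left ventricle and 0.992 in skeletal muscle. It ranked 27, 26 and 27 among the 44 members in that order. Col9a1, Col9a2, Col9a3, Col10a1 and Col11a1 stayed between 0.219 and 0.715 CPM per kilobase in every tissue. The 4 transmembrane collagens, Col13a1, Col17a1, Col23a1 and Col25a1, stayed between 0.408 and 1.04 CPM per kilobase. Col5a1 and Col5a2, the type V chains, averaged 2.34 and 5.44 CPM per kilobase in kidney, 5.22 and 5.23 in left ventricle and 4.77 and 5.12 in skeletal muscle, and Col5a2 passed the test in no tissue comparison. Col6a3 averaged 5.89 CPM per kilobase in kidney, 8.27 in left ventricle and 11.5 in skeletal muscle. Col6a4 and Col6a5 stayed between 0.314 and 0.525 in every tissue. Col12a1, Col16a1, Col19a1 and Col26a1 averaged 1.88, 3.67, 1.06 and 1.78 in kidney, 0.620, 2.12, 0.394 and 1.18 in left ventricle and 1.21, 1.48, 1.35 and 1.12 in skeletal muscle. Col8a2, Col11a2, Col20a1 and Col28a1 lay between 0.342 and 1.49 CPM per kilobase. Even the lowest had counts behind them, since Col9a1 had 51 to 173 and Col4a6 had 42 to 323 reads per library.

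Between tissues, members were called when edgeR's quasi-likelihood test gave a Benjamini-Hochberg adjusted p under 0.05 over all 46984 genes and the difference was at least 1 on the log2 scale. The 3 comparisons use the same 24 libraries and each pair of them shares a tissue. In kidney over left ventricle 16 members were called, 7 higher and 9 lower, where 14.2% of all genes were called, 8.68% higher and 5.49% lower. In kidney over skeletal muscle 20 were called, 9 higher and 11 lower, against 17.8% of all genes, 11.6% higher and 6.24% lower. In left ventricle over skeletal muscle 10 were called, 5 higher and 5 lower, against 9.28% of all genes, 5.84% higher and 3.44% lower. At the adjusted p alone the counts were 31, 38 and 21 of 44 members, against 33.6%, 43.5% and 26.6% of all genes. The split depends on scaling. With library totals in place of TMM, the higher and lower counts were 9 and 7 for kidney over left ventricle, 14 and 7 for kidney over skeletal muscle, and 7 and 4 for left ventricle over skeletal muscle. That change of scaling moved the median difference of all genes to 0.17 from -0.095, to 0.35 from -0.23 and to 0.20 from -0.12 in the same order. It moved the share of higher calls among all genes to 75.7% from 61.3%, to 88.4% from 65% and to 81.5% from 62.9%.

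**Figure D2:**
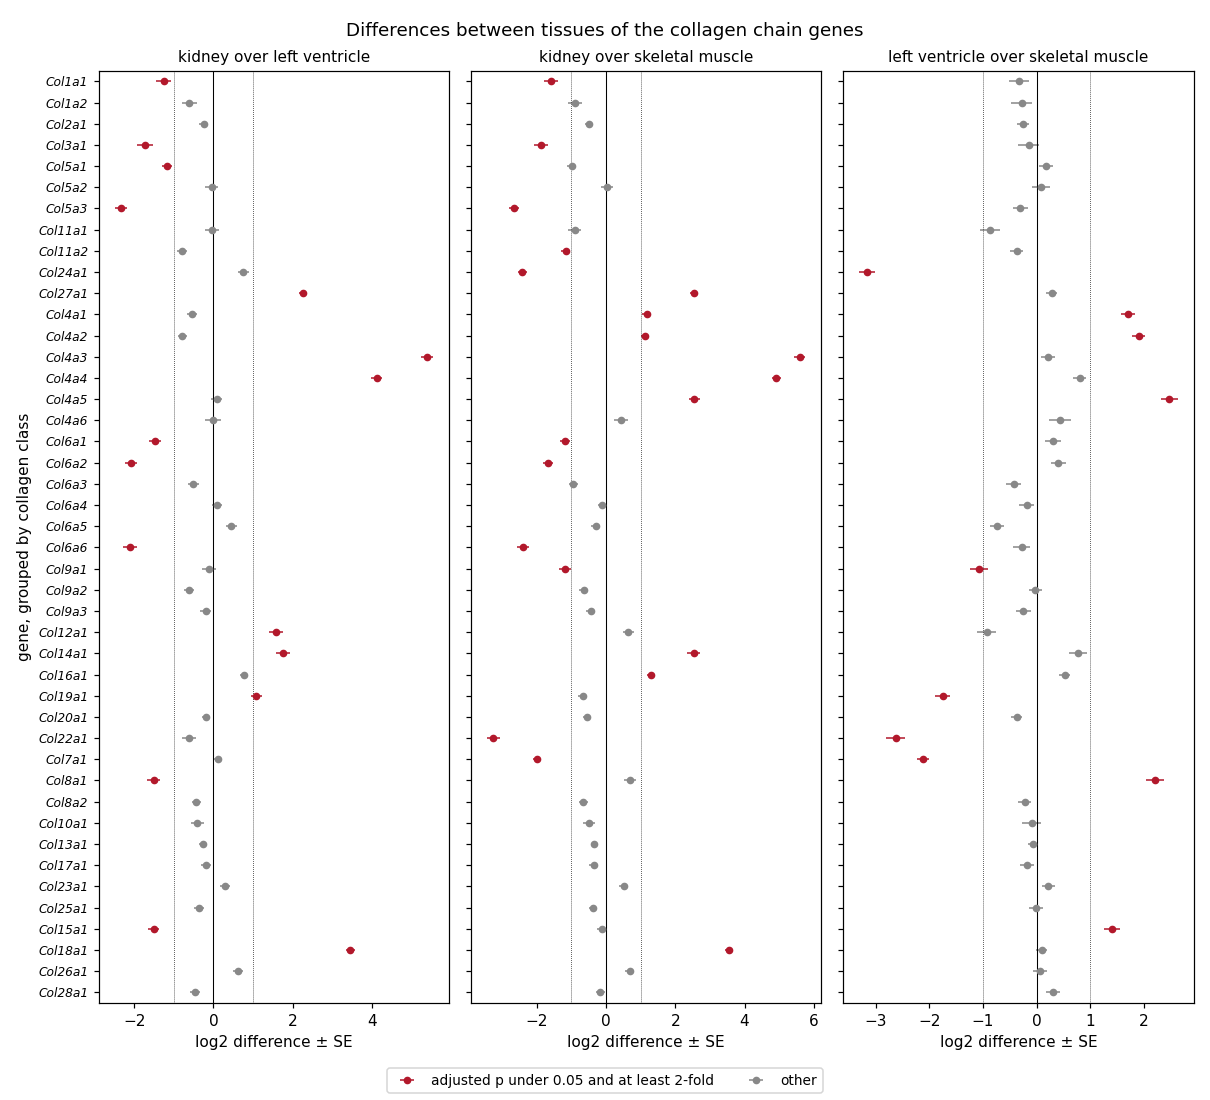
Difference of each collagen chain gene between tissues on the log2 scale, with its standard error, in the 3 comparisons, with called members in red and dotted lines at -1 and 1. Col4a3 is farthest to the right in both kidney panels, at 5.38 over left ventricle and 5.59 over skeletal muscle.

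Within type IV, 3 patterns appeared. Col4a3 ran from 243 to 382 CPM with a median of 322 in the 8 kidney libraries, from 4.89 to 9.60 with a median of 8.11 in left ventricle, and from 4.61 to 10.5 with a median of 6.14 in skeletal muscle. The kidney libraries were all above those of both other tissues, by 5.38 ± 0.16 over left ventricle and 5.59 ± 0.16 over skeletal muscle (log2 ± SE, edgeR adjusted p 2.08e-20 and 9.16e-21). Its partner Col4a4 ran from 224 to 356 CPM with a median of 270.1 in kidney, from 12.5 to 19.9 with a median of 16.1 in left ventricle and from 6.13 to 13.9 with a median of 9.14 in skeletal muscle. Kidney was higher by 4.11 ± 0.13 over left ventricle and by 4.91 ± 0.14 over skeletal muscle. Podocytes make these chains, and of 8 podocyte markers 2 were called higher and 1 lower in kidney over left ventricle, and 5 higher and 1 lower in kidney over skeletal muscle. In bulk tissue fewer cells of a type and less RNA per cell cannot be told apart. Col4a3 shares 563 exon bases with C430014B12Rik on the opposite strand, and whether counting used strand is not given in the sources used here, so reads of the 2 cannot be told apart there.

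Col4a5, the third chain of that network, followed another order. Its level was 25.0 to 38.6 CPM with a median of 31.3 in kidney, 18.3 to 35.9 with a median of 30.6 in left ventricle, and 3.33 to 8.66 with a median of 5.04 in skeletal muscle. Kidney and left ventricle overlapped, with a difference of 0.08 ± 0.14 (adjusted p 0.752), and both were higher than skeletal muscle, by 2.55 ± 0.15 and 2.48 ± 0.15. As a ratio per kilobase, Col4a5 over Col4a4 was 0.177 ± 0.025 in kidney, 2.87 ± 0.36 in left ventricle and 0.898 ± 0.214 in skeletal muscle (SD, n = 8), with no overlap between the tissues' ranges. The Col4a3 over Col4a4 ratio was 1.37 ± 0.19 in kidney, 0.566 ± 0.056 in left ventricle and 0.862 ± 0.175 in skeletal muscle.

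Col4a1 and Col4a2, the chains found in nearly all basement membranes, were highest in left ventricle. Col4a1 had a median of 227 CPM in kidney, 311 CPM in left ventricle and 107 CPM in skeletal muscle, with ranges of 176 to 284, 254 to 395 and 54.2 to 136 CPM. It was 0.53 ± 0.13 lower in kidney than in left ventricle (adjusted p 0.00128), and higher than in skeletal muscle by 1.18 ± 0.13 in kidney and by 1.71 ± 0.13 in left ventricle. Col4a2 was 0.78 ± 0.11 lower in kidney than in left ventricle, and higher than in skeletal muscle by 1.12 ± 0.12 in kidney and by 1.91 ± 0.12 in left ventricle. Per kilobase, Col4a1 over Col4a2 was 1.18 ± 0.07 in kidney, 0.987 ± 0.033 in left ventricle and 1.13 ± 0.12 in skeletal muscle. The 8 endothelial markers were all higher in left ventricle than in skeletal muscle, with a median difference of 2.00, and 6 of 8 were called lower in kidney than in left ventricle. Tek and Emcn were not called there, at -0.46 ± 0.10 and 0.41 ± 0.11, so Emcn went the other way. The part of the endothelial markers in the Col4a1 and Col4a2 differences was not tested. Col4a6 was low everywhere, at 0.81 to 3.77 CPM over the 24 libraries, and passed the test in no tissue comparison.

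**Figure D3:**
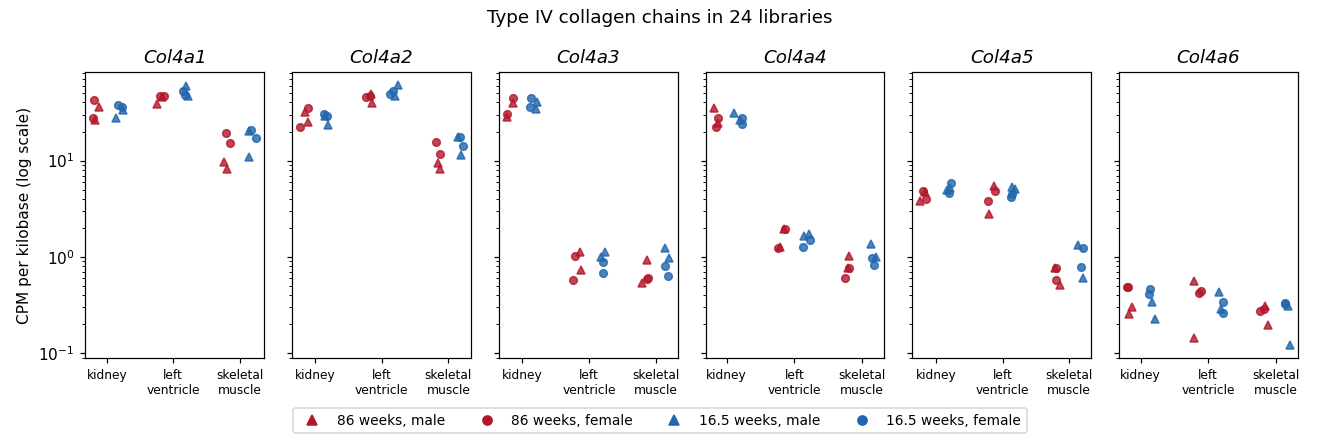
CPM per kilobase on a log axis for the 6 type IV chains in kidney, left ventricle and skeletal muscle, 1 point per library, with 86-week mice in red left of 16.5-week mice in blue, triangles for males and circles for females. Kidney stands above both other tissues for Col4a3 and Col4a4, and with left ventricle above skeletal muscle for Col4a5.

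Types XV and XVIII, the multiplexins, went in opposite directions in kidney over left ventricle. Col18a1, whose C-terminal fragment is endostatin, ran from 86.9 to 172 CPM with a median of 123 in kidney, from 8.52 to 13.7 with a median of 11.4 in left ventricle and from 7.84 to 13.2 with a median of 11.2 in skeletal muscle. It was 3.45 ± 0.12 and 3.55 ± 0.12 higher in kidney (adjusted p 3.56e-19 and 1.77e-19), and left ventricle and skeletal muscle did not differ past the test, at 0.09 ± 0.11. Col15a1 ran from 20.3 to 46.7 CPM with a median of 30.4 in kidney, from 58.7 to 105 with a median of 88.4 in left ventricle and from 17.7 to 56.5 with a median of 35.6 in skeletal muscle. It was lower in kidney than in left ventricle by 1.51 ± 0.15 and higher in left ventricle than in skeletal muscle by 1.41 ± 0.15. Kidney and skeletal muscle differed by -0.10 ± 0.15, or by 0.49 with library totals (edgeR adjusted p 0.00211). Every left ventricle library was above every library of both other tissues.

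Of the 11 fibril-forming chains, 4 were called lower and 1 higher in kidney over left ventricle, and 5 lower and 1 higher in kidney over skeletal muscle. With library totals the calls of Col1a1 (-0.97) and Col5a1 (-0.89) over left ventricle and of Col1a1 (-0.99) and Col11a2 (-0.55) over skeletal muscle fell under the fold threshold. Col3a1 ran from 30.1 to 92.2 CPM with a median of 52.3 in kidney, from 119 to 230 CPM with a median of 193 in left ventricle and from 86.0 to 402 CPM with a median of 186 in skeletal muscle. Kidney was lower by 1.74 ± 0.20 and 1.88 ± 0.20, and its kidney libraries lay below all left ventricle libraries and overlapped the lowest muscle library. Col1a1 was lower in kidney by 1.26 ± 0.19 and 1.58 ± 0.19, Col1a2 by 0.61 ± 0.19 and 0.89 ± 0.19, under the fold threshold, and Col5a3, a minor fibril chain, by 2.34 ± 0.15 and 2.64 ± 0.15. The 1 member of the class called higher in kidney was Col27a1, by 2.25 ± 0.11 over left ventricle and 2.53 ± 0.11 over skeletal muscle. Its level was 31.6 to 67.2 CPM in kidney, 8.68 to 13.2 CPM in left ventricle and 7.35 to 11.8 CPM in skeletal muscle. Left ventricle and skeletal muscle did not differ past the test for Col1a1, Col1a2 and Col3a1, with differences of -0.32 ± 0.19, -0.28 ± 0.19 and -0.14 ± 0.20, and Col1a2 and Col3a1 change sign with library totals, to 0.029 and 0.17. Of 10 fibroblast markers 8 were called lower in kidney than in each of the other tissues. Pdgfra, another of the 10, differed by 0.10 ± 0.14 in kidney over left ventricle and by 0.51 ± 0.14 over skeletal muscle. Dpep1, the last of the 10, went the other way and was called higher in kidney, by 1.535 ± 0.15 and 2.38 ± 0.15. Sums of these markers in kidney include it. The part of these markers in the differences of the chains was not tested.

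Col24a1, a fibril-forming chain otherwise known from bone and cornea, was highest in skeletal muscle. It ran from 1.86 to 2.87 CPM in kidney, from 1.07 to 2.05 CPM in left ventricle and from 7.06 to 25.2 CPM in skeletal muscle. It was lower than in skeletal muscle by 3.16 ± 0.15 in left ventricle and by 2.41 ± 0.14 in kidney. Col22a1, a fibril-associated chain of the myotendinous junction, ran from 1.67 to 3.40 CPM in kidney, from 2.92 to 4.53 CPM in left ventricle and from 13.3 to 52.5 CPM in skeletal muscle. It was lower than in muscle by 2.63 ± 0.18 in left ventricle and by 3.25 ± 0.18 in kidney. Col7a1, the anchoring fibril chain of skin, was 6.18 to 9.35 CPM in the 16 kidney and left ventricle libraries, against 22.6 to 48.8 CPM in skeletal muscle, lower by 2.11 ± 0.11 in left ventricle and by 2.00 ± 0.11 in kidney. No muscle library overlapped another tissue for any of these 3. Tendon and myotendinous markers were also higher in muscle, as 4 of 7 were called lower in left ventricle and 5 of 7 in kidney.

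Among type VI chains, Col6a1 was lower in kidney than in left ventricle by 1.48 ± 0.15, Col6a2 by 2.07 ± 0.15 and Col6a6 by 2.11 ± 0.17, and lower than in skeletal muscle by 1.18 ± 0.15, 1.67 ± 0.14 and 2.38 ± 0.17. No type VI member was called between left ventricle and skeletal muscle. The Col6a1 over Col6a2 ratio per kilobase was 1.66 ± 0.16 in kidney, 1.10 ± 0.05 in left ventricle and 1.18 ± 0.03 in skeletal muscle. Col14a1, which binds fibril surfaces, was higher in kidney by 1.76 ± 0.18 over left ventricle and 2.53 ± 0.18 over skeletal muscle, and its kidney libraries, at 61.8 to 130 CPM, were all above the highest of the others, at 49.5 CPM. Col12a1, another fibril-associated chain, was 1.58 ± 0.18 higher in kidney than in left ventricle. Col16a1 was 1.30 ± 0.11 higher in kidney than in skeletal muscle, and Col11a2 was 1.16 ± 0.13 lower. Col19a1 was 1.08 ± 0.14 higher in kidney than in left ventricle and 1.75 ± 0.14 lower in left ventricle than in skeletal muscle. Col9a1 was 1.18 ± 0.17 lower in kidney and 1.07 ± 0.17 lower in left ventricle than in skeletal muscle, and the left ventricle difference was under the fold threshold without 86-week mouse 11 or 16.5-week mouse 20. With library totals the Col9a1 differences were -0.59 in kidney and -0.75 in left ventricle over skeletal muscle, and those of Col6a1 and Col11a2 in kidney over skeletal muscle were -0.58 and -0.55, all under the fold threshold. Col8a1, a short-chain collagen of vessels and heart valves, ran from 4.35 to 13.0 CPM in kidney, from 13.7 to 37.2 CPM in left ventricle and from 3.94 to 5.37 CPM in skeletal muscle. It was lower in kidney than in left ventricle by 1.51 ± 0.17 and higher in left ventricle than in muscle by 2.21 ± 0.17. Its 4 highest left ventricle libraries included 86-week mice 11 and 14 and 16.5-week mouse 19, at 37.2, 27.3 and 25.5 CPM, which had high valve, epicardial and atrial markers. The other of the 4 was 16.5-week mouse 20, where these markers were low. Left ventricle of 86-week mouse 12, where they were high, came below it. Without mouse 11 the difference over muscle was still called, and over single mice left out it ran from 2.00 to 2.36.

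Genes that fold and modify collagen chains also differed between tissues. Of 18 such genes, 3 were called higher and 5 lower in kidney over left ventricle, 7 higher and 0 lower in kidney over skeletal muscle, and 8 higher and 1 lower in left ventricle over skeletal muscle. P3h2, a prolyl 3-hydroxylase that acts on type IV collagen, was higher in kidney by 4.33 ± 0.10 over left ventricle and 4.94 ± 0.10 over skeletal muscle. Among 8 procollagen processing genes, 1 was higher and 4 lower in kidney over left ventricle, the lower ones including the N-propeptidases Adamts2, at -1.36 ± 0.13, and Adamts3, at -1.77 ± 0.11, and Bmp1, the C-propeptidase, at -1.14 ± 0.09. Among 6 crosslinking genes, Loxl4 was higher in kidney by 1.63 ± 0.14 and 1.44 ± 0.14. Pxdn, the peroxidasin that crosslinks type IV collagen, was lower in kidney than in left ventricle by 1.30 ± 0.12 and higher in left ventricle than in muscle by 1.67 ± 0.13. Among 10 collagen receptors, Ddr1 was higher in kidney by 2.43 ± 0.09 over left ventricle and 2.40 ± 0.09 over skeletal muscle. Itga1, the collagen-binding integrin alpha 1 chain, was higher in kidney by 1.05 ± 0.08 and 2.82 ± 0.09.

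With age, no member was called in any tissue by edgeR's quasi-likelihood test, in fits of 8 libraries with terms for age and sex. That is 0 of 44 in kidney, where 0.112% of all genes were called, 0 of 44 in left ventricle, where 0.0741% were, and 0 of 44 in skeletal muscle, where 0.0183% were. At an unadjusted p under 0.05 there were 8 members in kidney against 7.96% of all genes, 2 in left ventricle against 3.37% and 16 in skeletal muscle against 5.51%. DESeq2 called 0 in kidney, 0 in left ventricle and 1 in skeletal muscle. The median change at 86 over 16.5 weeks over the 44 members was 0.14 in kidney, -0.0050 in left ventricle and -0.27 in skeletal muscle, beside 0.02, 0.0074 and 0.02 for all genes. A positive change was seen in 32, 20 and 11 of the 44 in that order, and in 53.5%, 51.4% and 52.6% of all genes.

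In skeletal muscle the type I chains had the lowest adjusted p after Col24a1. Col1a1 was 73.8, 90.7, 62.7 and 40.7 CPM in 86-week muscle (mice 11, 12, 14 and 17), against 264, 176, 61.7 and 181 CPM in 16.5-week muscle (mice 14, 15, 19 and 20). The 86-week libraries were all below 3 of the 4 younger ones, and 16.5-week mouse 19 lay within their range. The difference was -1.29 ± 0.26 (adjusted p 0.239). Col1a2 was 81.8, 105, 123 and 67.3 CPM in 86-week muscle against 281, 202, 94.1 and 246 CPM in 16.5-week muscle, a difference of -1.07 ± 0.26 (adjusted p 0.437). Col3a1, the type III chain, was 148, 220, 152 and 86.0 CPM in 86-week muscle against 402, 278, 127 and 391 CPM in 16.5-week muscle, a difference of -0.97 ± 0.28 (adjusted p 0.625). In all 3 genes the same mouse, 19, was the lowest of its group. Without it Col1a1 was lower by 1.55 and Col1a2 by 1.35 and both passed the test, with adjusted p of 0.00428 and 0.0288, the only members that did in that fit. Col5a1 differed by -0.69 ± 0.19, Col4a1 by -0.42, Col6a1 by -0.40, Col4a3 by -0.40 and Col15a1 by -0.38, none past the test. Over the 8 fits that left out a mouse, the adjusted p ran from 0.00428 to 0.554 for Col1a1 and from 0.0288 to 0.892 for Col1a2.

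Muscle libraries also differed in markers. Summed fibroblast markers were 1067, 911, 917 and 428 CPM in 86-week muscle against 882, 827, 330 and 972 CPM in 16.5-week muscle, so the 2 lowest libraries were 1 of each age. Summed tendon and myotendinous markers were 30.6, 37.7, 32.0 and 44.2 CPM in 86-week muscle against 130, 97.9, 27.1 and 42.6 CPM in 16.5-week muscle, and 0 of 7 of them were called. All 7 had a negative change, and their median was -0.75. None of these markers was at 0 in any group. Their part in the collagen differences was not tested.

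Col24a1 went the other way. It was 12.7, 17.8, 25.2 and 16.6 CPM in 86-week muscle against 8.44, 9.79, 7.06 and 7.48 CPM in 16.5-week muscle. All 4 older libraries were above all 4 younger ones, in a tissue where 1.44% of all genes had groups apart in that direction. The difference was 1.16 ± 0.19, with an adjusted p of 0.0991 that missed the threshold. It passed in DESeq2 (adjusted p 5.99e-05), in the fit of all 24 libraries (0.0233) and without 86-week mouse 11 (0.0421). Its level was 1.86 to 2.87 CPM in kidney and 1.07 to 2.05 CPM in left ventricle over both ages. Among the 11 fibril-forming chains 2 had a positive change in muscle, against 9 with a negative one, and the class median was -0.49.

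**Figure D4:**
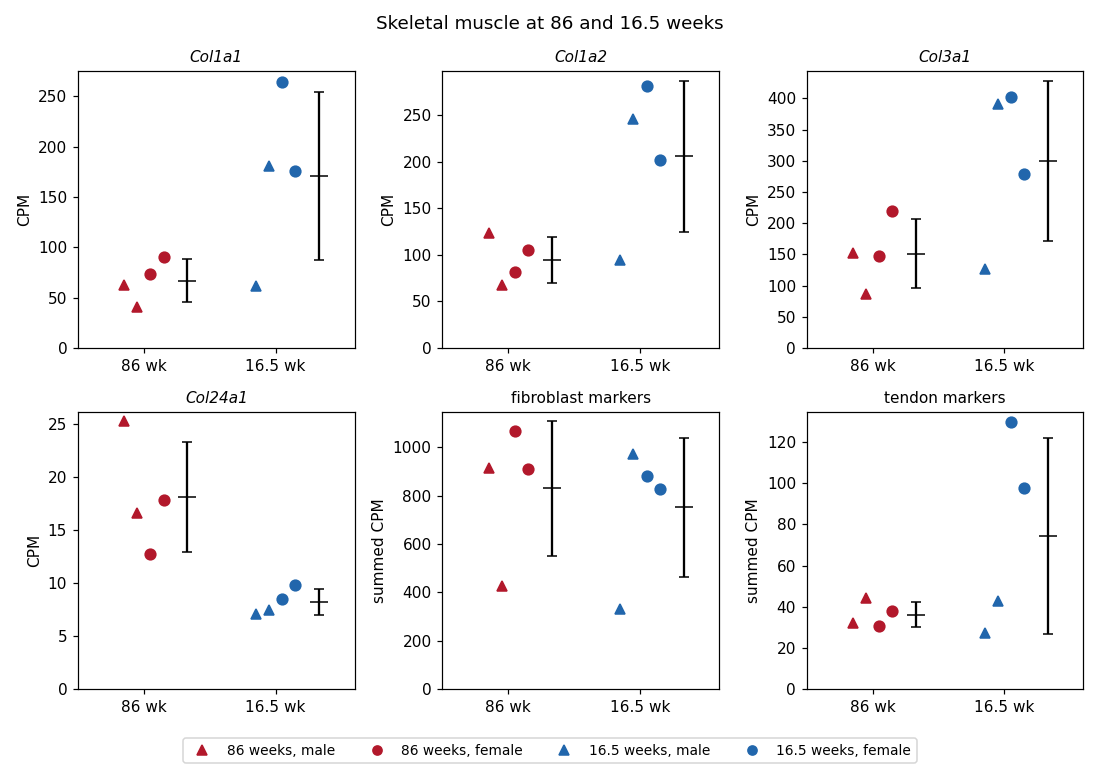
CPM in the 4 muscle libraries at 86 weeks (red, left) and the 4 at 16.5 weeks (blue, right) for 4 collagen genes and the summed CPM of 2 marker lists, with triangles for males, circles for females and bars for mean ± SD. Col24a1 is above 12 CPM in every older library and below 10 CPM in every younger one, and for Col1a1, Col1a2 and Col3a1 1 younger male lies among the older libraries.

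In kidney at 86 weeks the changes were small and mostly positive. Col6a5 was 3.94, 4.47, 6.03 and 4.64 CPM at 86 weeks (mice 11, 12, 14 and 17) against 3.52, 3.74, 3.38 and 2.58 CPM at 16.5 weeks (mice 14, 15, 19 and 20), a difference of 0.57 ± 0.17 (adjusted p 0.342). Col6a2 differed by 0.50 ± 0.16, Col5a3 by 0.40 ± 0.13, Col16a1 by 0.35 ± 0.12 and Col15a1 by 0.34 ± 0.12, with adjusted p of 0.394 to 0.477. Col6a1 differed by 0.37 ± 0.16, Col1a1 by 0.23 ± 0.17 and Col3a1 by 0.025 ± 0.20. Groups did not overlap for Col6a5, Col5a3 and Col13a1, all higher at 86 weeks, where 1.88% of all genes did the same. The chains that dominate kidney showed less, with -0.08 ± 0.12 for Col4a3 and 0.02 ± 0.12 for Col4a1. The same 86-week female, mouse 12, was the highest kidney library for Col1a1, Col3a1, Col4a1, Col6a1 and Col16a1, and its summed fibroblast markers were 318 CPM against 140 to 297 CPM in the other 7.

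In left ventricle no member had an adjusted p under 0.9997. Col4a1 was 309, 311, 299 and 254 CPM at 86 weeks (mice 11, 12, 14 and 17) against 347, 320, 312 and 395 CPM at 16.5 weeks (mice 14, 15, 19 and 20). The older libraries were all below the younger ones, by -0.23 ± 0.12, where 0.806% of all genes had groups apart in that direction. Col22a1 was 3.70, 3.84, 3.84 and 4.53 CPM against 3.07, 3.37, 2.92 and 3.14 CPM in the same order, higher in each older library, with a difference of 0.34 ± 0.15, where 1.29% of all genes had groups apart in that direction. Col12a1 differed by 0.50 ± 0.23, Col3a1 by -0.28 ± 0.15, Col4a2 by -0.21 ± 0.12, Col6a1 by -0.21 ± 0.13 and Col15a1 by -0.20 ± 0.13. Col12a1 had 865, 529, 783 and 375 reads at 86 weeks against 258, 421, 710 and 425 at 16.5 weeks, in the same order. Valve, epicardial and atrial markers were high in 86-week mice 11, 12 and 14 but only in mouse 19 at 16.5 weeks, so they ran partly with age. Their part in the age changes was not tested. Col1a1, a chain long tied to cardiac fibrosis, was 93.2, 70.1, 101 and 49.7 CPM at 86 weeks against 75.1, 70.8, 103 and 100.2 CPM at 16.5 weeks, and differed by -0.14 ± 0.18.

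Of the pathway genes, 0 of 18 folding and modification genes, 0 of 8 procollagen processing genes, 0 of 6 crosslinking genes and 0 of 10 collagen receptors were called with age in any of the 3 tissues. In kidney Loxl1 differed by 0.57 ± 0.16 (adjusted p 0.330) and Pxdn by -0.31 ± 0.10 (0.385), and in muscle Loxl2 by -0.56 ± 0.20 (0.820). The test of whether the age change differs between tissues, in a fit of all 24 libraries, called 0 of 44 members where 0.0319% of all genes were called. At an unadjusted p under 0.05 there were 13 members, against 4.06% of all genes, and DESeq2 called 1, Col24a1, with an adjusted p of 0.00944. In edgeR the lowest adjusted p were 0.157 for Col24a1, 0.473 for Col1a1 and 0.971 for Col1a2. For Col24a1 the age change was -0.076 ± 0.16 in kidney, 0.013 ± 0.25 in left ventricle and 1.16 ± 0.19 in skeletal muscle.

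Sex separated the collagen genes of kidney more than age did in counts of calls, though the 2 were not tested against each other. Of 44 members 13 were called in male over female kidney, 2 higher and 11 lower, where 7.58% of all genes were called, 3.77% higher and 3.81% lower. Col19a1, a fibril-associated chain, was 6.88, 8.95, 6.96 and 6.62 CPM in male kidney (86-week mice 14 and 17, 16.5-week mice 19 and 20) against 1.67, 1.45, 1.80 and 1.89 CPM in female kidney (86-week mice 11 and 12, 16.5-week mice 14 and 15). Every male library was above every female one at both ages, where 5.5% of all genes had groups apart in that direction. The difference was 2.09 ± 0.14 (adjusted p 2.69e-07) and it was called in all 8 fits that left out a mouse. In total 519 to 825 reads lay behind the male values and 130 to 152 behind the female ones.

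Among the 11 that were lower in males, Col5a2, which pairs with Col5a1 in type V fibrils, moved most. Col5a2 was 23.3, 26.5, 18.4 and 22.5 CPM in male kidney against 34.9, 47.7, 53.9 and 61.3 CPM in female kidney. The sexes did not overlap, and the difference was -1.13 ± 0.14 (adjusted p 0.000125). Col6a2 was 16.6, 16.7, 8.22 and 12.1 CPM in male kidney against 18.9, 29.9, 18.03 and 24.2 CPM in female kidney, a difference of -0.82 ± 0.16 (adjusted p 0.00394). Col14a1 was 77.8, 80.1, 61.8 and 64.1 CPM in male kidney against 81.1, 130, 121 and 96.0 CPM in female kidney, a difference of -0.62 ± 0.13 (adjusted p 0.00629). Col8a1 fell by 0.77 and Col4a6 by 0.73 in males on the log2 scale. Col6a1 fell by 0.70, Col12a1 by 0.68, Col6a3 by 0.52, Col5a1 by 0.48, Col16a1 by 0.45 and Col15a1 by 0.42. Of these 11, Col5a2, Col6a2, Col14a1, Col8a1 and Col4a6 were called in all 8 fits that left out a mouse, and their groups, with Col12a1, did not overlap. In the fit of all 24 libraries Col14a1, Col8a1 and Col4a6 did not pass, with adjusted p of 0.213, 0.0681 and 0.216, nor did Col6a1, Col12a1, Col6a3, Col5a1, Col16a1 and Col15a1. A share of 4.66% of all genes had groups apart in that direction. The other calls were lost in 2 or more of those fits, and 6 members were left without 86-week mouse 12 or 16.5-week mouse 19, and 7 without 16.5-week mouse 15. Col6a6, the second member higher in males, was 3.21, 6.95, 8.16 and 7.23 CPM in male kidney against 3.84, 3.76, 2.71 and 3.57 CPM in female kidney, differed by 0.82 ± 0.22 (adjusted p 0.0367) and was called in 2 of the 8 fits.

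The glomerular chains did not follow. Col4a3 was 243, 341, 295 and 342 CPM in male kidney against 259, 380, 382 and 304 CPM in female kidney, with a difference of -0.14 ± 0.12 (adjusted p 0.691), and Col4a4 differed by 0.18 ± 0.11 (adjusted p 0.477). Podocyte markers were lower in males, as 7 of 8 were called, and their sum was 226, 299.9, 215 and 224 CPM in male kidney against 272, 363, 398 and 354 CPM in female kidney. Summed fibroblast markers were 215, 219, 140 and 184 CPM in male kidney against 216, 318, 224 and 297 CPM in female kidney, and 3 of 10 were called lower, Gsn, Lum and Pdgfra. Of 8 adipocyte markers 0 were called, but all 8 had a negative change, with a median of -1.60. Their sum was 43.4, 36.7, 26.2 and 32.7 CPM in male kidney against 40.6, 79.0, 26.6 and 268 CPM in female kidney, the last in 16.5-week mouse 15. None of these lists was at 0. The part of these cell type differences in the collagen calls was not tested. Of the pathway genes, 3 of 8 procollagen processing genes, 3 of 6 crosslinking genes and 2 of 10 receptors were called lower in males and 0 higher, beside 3.81% of all genes called lower. The other 16 did not pass the test. Loxl4, a lysyl oxidase family member, fell by 2.16 ± 0.21 and Pcolce2, an enhancer of C-propeptide removal, by 1.76 ± 0.15 on the log2 scale. Among 18 folding genes P3h2 and P3h4 fell by 0.68 ± 0.08 and 0.74 ± 0.13, and Crtap rose by 0.43 ± 0.10.

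**Figure D5:**
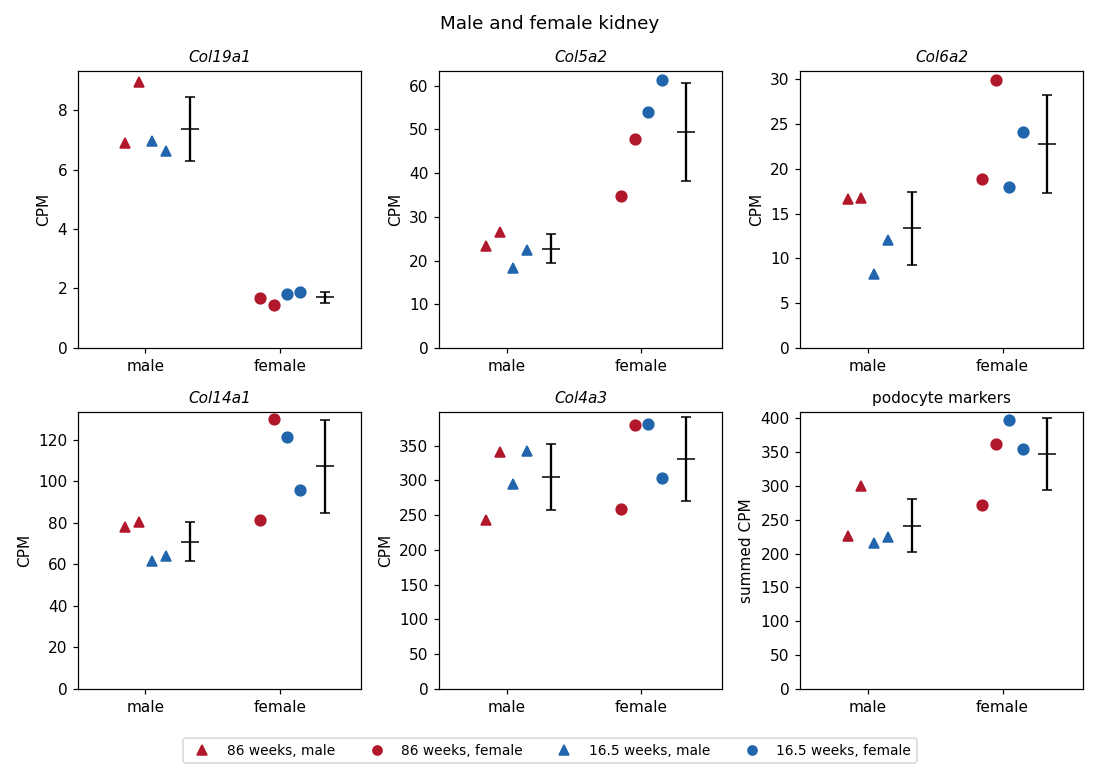
CPM in the 4 male (left, triangles) and 4 female (right, circles) kidney libraries for 5 collagen genes and the summed CPM of 8 podocyte markers, with 86-week mice in red, 16.5-week mice in blue and bars for mean ± SD. The sexes do not overlap for Col19a1, Col5a2, Col6a2 and Col14a1, and they overlap for Col4a3.

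In the other tissues fewer members were called for sex. In skeletal muscle 2 of 44 were called, 1 higher and 1 lower, against 1.36% of all genes, 0.977% higher and 0.382% lower. Col14a1 was 11.7, 7.40, 6.98 and 14.5 CPM in male muscle (86-week mice 14 and 17, 16.5-week mice 19 and 20) against 16.2, 23.2, 29.1 and 22.0 CPM in female muscle (86-week mice 11 and 12, 16.5-week mice 14 and 15). Its difference was -1.11 ± 0.21 (adjusted p 0.0173) and it was called in 5 of the 8 fits that left out a mouse. Col7a1 was 36.3, 37.1, 48.8 and 37.3 CPM in male muscle against 31.1, 29.5, 24.7 and 22.6 CPM in female muscle, a difference of 0.62 ± 0.13 (adjusted p 0.0308) that was called in 2 of the 8 fits. Neither gene's groups overlapped, as for 2.65% of all genes higher in males and 3.37% lower. Col20a1 differed by -0.62 ± 0.16 (adjusted p 0.0936). Without a filter on low counts neither Col14a1 nor Col7a1 was called. In left ventricle 0 of 44 were called, against 0.871% of all genes, with 4 members at an unadjusted p under 0.05 against 5.1% of all genes, and DESeq2 called 0. Col14a1 was 21.5, 10.3, 23.6 and 19.9 CPM in male left ventricle against 49.5, 33.6, 34.0 and 23.6 CPM in female left ventricle, a difference of -0.92 ± 0.22 (adjusted p 0.0749 by edgeR) that passed without 16.5-week mouse 15 (0.0297). So for Col14a1 every male library was below every female one in all 3 tissues, in left ventricle by 23.62 against 23.63 CPM at the nearest point, where 2.05% of all genes had groups apart in that direction. Col26a1 differed by -0.57 ± 0.19 and Col6a6 by 0.35 ± 0.12 in left ventricle (adjusted p 0.493 and 0.499). The 3 tissues come from the same 8 mice, and whether the sex difference varies between tissues was not tested. Summed fibroblast markers in male muscle were 917, 428, 330 and 972 CPM against 1067, 911, 882 and 827 CPM in female muscle. They overlapped, and 0 of 10 were called and 0 of 10 had a positive change. Their part in the Col14a1 difference was not tested.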

How the data were processed

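The authors deposited 1 table of gene counts, whole numbers for 55401 genes in 24 libraries. Per the submitters' processing notes, STAR 2.7.6a and StringTie 2.1.1 were the tools, on the GRCm38.p6 build. Per the labels' protocols, RNA was column-purified and made into ribosome-depleted total RNA libraries. The annotation release, the strand setting and how StringTie gave counts are not given in the sources used here, and total RNA counts can hold reads of unspliced transcripts. Coordinates, exon overlaps and transcript lengths came from GENCODE M21, which held 55141 of the gene IDs and all 44 members, and promoter windows came from RefSeq.

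From the deposited counts, edgeR 4.0.16 (R 4.3.3, limma 3.58.1) gave quasi-likelihood F-tests after TMM scaling and filterByExpr, with Benjamini-Hochberg adjustment over all genes tested and a threshold of 0.05. Age and sex were fitted within each tissue on 8 libraries with both terms, which leaves 5 residual degrees of freedom. Tissue differences and age by tissue were fitted on all 24 libraries with age and sex within tissue, which leaves 15, and tissue calls also needed a log2 difference of at least 1. The SE is the absolute log2 change over the square root of F. The same mice gave all 3 tissues, so their numbers pair the tissues, and a fit with mouse as a block was run beside the unblocked one. The ages are different mice and were not paired. In the fits of 8 libraries each mouse is 1 replicate, and p-values measure the spread between mice. In the unblocked fits of 24 libraries each mouse enters with all 3 tissues and there is no mouse term. Their p-values and SEs treat the libraries of a mouse as independent. Counts carry no molecular identifiers.

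Genes were named by rule. For tissue these are the 6 largest called differences each way and a fixed set of 11 chains. For age they are the called members, the 5 with the smallest p and 6 fixed chains. For sex and age by tissue they are the called members and the 3 with the smallest p. A few further members whose groups did not overlap were named after their values were seen. The members and lists were chosen with earlier results of these data known. From other lists up to 4 called genes or 2 values were named. Alternatives were RLE scaling, library totals, DESeq2 1.42.0, no filter, 1 CPM in 4 libraries, other model terms and leaving out each mouse. The length of all annotated exons was an alternative chosen after seeing the data. The tests were tried on simulated counts.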

Additional observations from a re-analysis of the deposited data

Results flagged for a closer look

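Over 62 sets of 4 values, those of the age groups for the members named there and for the summed collagen level, Dixon's test at the 95% level found 4 libraries apart from the other 3 of their group, and chance gives about 1 in 20. In kidney at 86 weeks, mouse 12 had 31.1 CPM of Col16a1 against 16.5 to 18.6 CPM in the other 3, and 41.0 CPM of Col6a1 against 23.4 to 25.5 CPM. In left ventricle at 86 weeks, mouse 17 had 4.53 CPM of Col22a1 against 3.70 to 3.84 CPM. In skeletal muscle at 86 weeks, mouse 14 had 7.90 CPM of Col4a3 against 4.61 to 5.17 CPM. Of these, kidney mouse 12 also had the highest summed collagen level of its tissue, at 2230 CPM against 1459 to 1967 CPM. Its summed fibroblast markers were 318 CPM against 140 to 297 CPM in the other 7 kidney libraries, and their part was not tested.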

How the results depend on the processing

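The tissue counts of called members stayed within 1.5 times of the main ones under every alternative run, including the replicate block, which gave 16, 20 and 10 for kidney over left ventricle, kidney over skeletal muscle and left ventricle over skeletal muscle, and 0 for age by tissue, so the block changed no count. Age counts in skeletal muscle were 1 with DESeq2 and 1 in the fit of all 24 libraries, and ran from 0 to 2 over fits without 1 mouse. Age by tissue gave 1 with DESeq2. Sex counts in kidney were 8 without a filter and 4 in the fit of all 24 libraries, and ran from 6 to 17 over fits without 1 mouse. In skeletal muscle they were 1 with RLE scaling, 4 with DESeq2, 0 without a filter and 4 in the fit of all 24 libraries, and ran from 0 to 7. In left ventricle they ran from 0 to 1. The summed kidney level was 2175 CPM by library totals. The cause of these shifts was not tested. Signs turned only for changes that did not pass the test in the main fit. For age these were, over fits without 1 mouse, Col1a1 (-0.29 to 0.088) and Col4a3 (-0.30 to 0.047) in left ventricle, and Col3a1 (-0.17 to 0.24), Col4a1 (-0.091 to 0.12) and Col4a3 (-0.19 to 0.0054) in kidney. Kidney Col3a1 was -0.028 without a sex term and -0.0043 in the fit of all 24 libraries. Kidney Col4a1 was -0.0038 with RLE scaling, -0.0038 with DESeq2 and -0.0079 in the fit of all 24 libraries. Library totals gave 0.029 for Col1a2 and 0.17 for Col3a1 in left ventricle over skeletal muscle and 0.49 for Col15a1 in kidney over skeletal muscle. The last had an edgeR adjusted p of 0.00211 and was under the fold threshold. A floor of 1 CPM in 4 libraries gave -0.010 for Col18a1 in left ventricle over skeletal muscle and -0.025 for Col4a5 in kidney over left ventricle. Fits without 1 mouse gave -0.28 to 0.033 for Col3a1 in left ventricle over skeletal muscle, -0.050 to 0.19 for Col4a5 in kidney over left ventricle and -0.18 to 0.041 for Col15a1 in kidney over skeletal muscle. With the length of all annotated exons, 5, 4 and 4 of the 5 highest members per kilobase in kidney, left ventricle and skeletal muscle were the same. These counts do not cover the order of the members, which depends on the length for Col1a2, at 12.4 kilobases in place of 5.35. With 4 mice per age, changes near the SEs given could not be told from 0.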
